A study of Homo sapiens with 8 samples.

Results

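Splicing factors and RNA helicases were compared between the extremes of lactic acid permeability in MIA PaCa-2 cells, called PHLac-low and PHLac-high for the low and the high fraction of a cell sort. MIA PaCa-2 is an established cell line from a human pancreatic ductal adenocarcinoma. The cells were wild type, carried no other treatment, and were exposed briefly to lactate-containing medium, which was then washed out, for the sort. Sorting was carried out 4 times, with both fractions of a repeat sequenced as a pair, so there were 4 PHLac-low and 4 PHLac-high libraries. The cells were sorted by lactic acid permeability, which the series' design text treats as a readout of metabolism, and every library comes from that 1 line under 1 culture condition. The members were the genes in the authors' table of differing genes whose symbols begin with SRSF, SF3A, SF3B, HNRNP, PRPF, SNRP, RBM, DDX, DHX or a numbered LSM, or are CLK1 to CLK4, CCNL1 or CCNL2. That gave 71 of the 3666 listed genes: 6 SRSF, 3 SF3B, 11 HNRNP, 2 PRPF, 8 SNRP, 4 LSM, 16 RBM, 13 DDX, 4 DHX, 3 CLK and 1 CCNL gene. Of these, 69 are annotated as protein coding in GENCODE release 29 (build GRCh38). RBM5-AS1 is an antisense RNA and DDX12P a pseudogene. Other splicing and helicase genes were not analysed here, among them CCNL1 and CLK3.

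The spliceosome removes introns from pre-mRNA. It is built from small nuclear ribonucleoproteins, in which the SNRP genes encode Sm and other core proteins and the LSM genes encode Sm-like proteins, with SF3B proteins helping to recognise the branch point. SR proteins (SRSF genes) and hnRNP proteins bind exons and introns and raise or lower the use of nearby splice sites. CLK kinases phosphorylate SR proteins, and cyclin L proteins pair with CDK11 kinases in nuclear speckles. DEAD-box (DDX) and DEAH-box (DHX) helicases remodel RNA and RNA-protein complexes in splicing, ribosome assembly, export, translation and the sensing of viral RNA.

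Every value per library below is a normalised count, that is a read count divided by the size factor of its library. The fewest reads behind any member in any library were 7, for RBM5-AS1. Reads in the listed genes ranged from 8979276 to 23176205 per library, as recovered from the size factors, and the deepest was the PHLac-low library of repeat 3. Every value came out whole within 0.02 read, but in 4 libraries, those at both ends of this range among them, too few low values were present for a separate check of the recovery. Changes are log2 differences of PHLac-high minus PHLac-low, on the log2(normalised count + 1) scale, from limma with the repeat as a block and Benjamini-Hochberg adjustment over all listed genes. They carry limma's standard error (SE) from 4 pairs of libraries, with each gene's variance drawn toward a trend over all listed genes. This SE can therefore be smaller or larger than the spread of a gene's own 4 differences gives. The table holds only genes that the authors had called different in these libraries. A member passing the same comparison again is therefore a description and not evidence. Nothing in the labels says whether the repeats came from separate cultures, so p-values speak only for these repeats. With the block they set a change against the variation of the difference between fractions. Differences in level between repeats do not enter them. Cell type markers were only described, since genes are listed for differing between fractions and their listing cannot check identity. The ductal markers KRT19 and SOX9 were listed and abundant (summed count 17500 to 25096 in PHLac-low and 20491 to 29638 in PHLac-high). The other 6 of 8 ductal and epithelial markers were not analysed here. Nor were 3 markers of the mesenchymal state of MIA PaCa-2, 3 endothelial markers, and 5 acinar and islet markers. Of markers of other cell types, 2 of 5 fibroblast genes (COL1A1 and ACTA2) summed to 246 to 471 in PHLac-low and 148 to 258 in PHLac-high. Of 5 leukocyte genes, 3 (PTPRC, CD14 and CD68) summed to 1522 to 3403 and 1591 to 5276. Within that list the genes went opposite ways, PTPRC from a mean of 262 to 103 (-1.36), CD14 from 1037 to 1489 (0.47) and CD68 from 1428 to 2189 (0.55). In the ductal list SOX9 went from 2564 to 5669 (1.15) and KRT19 from 17367 to 20360 (0.23), while both fibroblast genes were lower in PHLac-high (COL1A1 -0.64 and ACTA2 -0.98). None of the listed markers was at 0 in any library, and the part of these markers in the results was not tested. In RNA from bulk fractions of 1 line, fewer cells expressing a gene and less of its RNA per cell cannot be told apart.

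Most members were a little higher in PHLac-high, and 8, among them the splicing cyclin CCNL2 and the kinase CLK2, were lower. Of the 71 members, 63 (88.7%) were higher and 8 were lower. All 71 passed in limma at an adjusted p of 0.05, as did 99.9% of all listed genes (58.7% higher and 41.2% lower). The median change was 0.27 over the members and 0.25 over all listed genes. The 63 higher members ranged from 0.18 to 0.84 with a median of 0.28, and 43 of them lay between 0.15 and 0.35. The 8 lower members ranged from -0.20 to -1.38 with a median of -0.57. A change of at least 0.5 was seen in 9 members upward (19.6% of all listed genes) and 5 members downward (19.4%). Direction was the same in all 4 repeats for 69 members (96.1% of all listed genes), with DDX28 and DDX58 the exceptions.

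**Figure D1:**
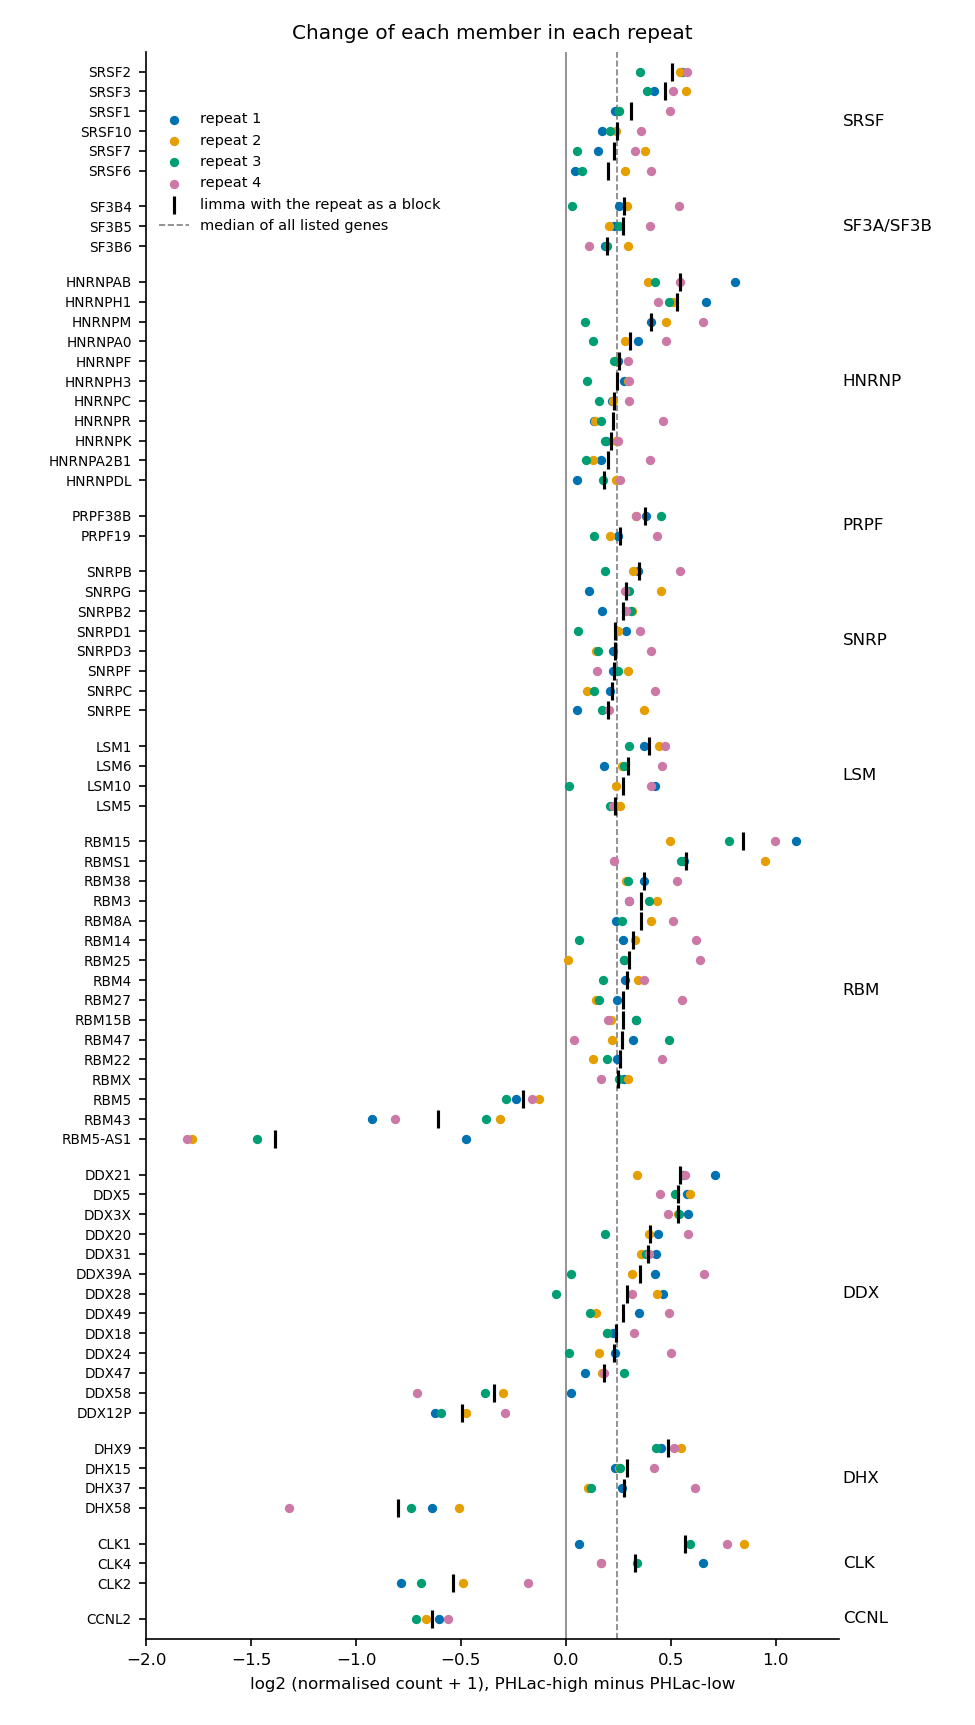
Log2 change of each of the 71 members (PHLac-high minus PHLac-low, x axis) in each of the 4 repeats (coloured points) and from limma (black bars), grouped by family. Most bars lie near the dashed median of all listed genes (0.25), and the 8 lower members stand left of 0; with upper-quartile scaling 16 members would lie left of 0, and 26 with the whole GC and length curve subtracted.

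Level and scaling both touch this split. The members were more abundant than the table, with a median mean count of 3579 against 1335, and 56 of 71 lay at or above the table's median. Among all listed genes at or above that median 77% were higher, and among these 56 members 53 were. Below it 40.6% of listed genes and 10 of 15 members were higher. When upper-quartile scaling over the listed genes replaced the authors' size factors, the median of all listed genes moved by -0.22. The member median then became 0.05, and 55 members were higher and 16 lower. Of these, 21 passed (64.4% of all listed genes did), 13 upward (23.2%) and 8 downward (41.2%). The 13 were CLK1, DDX3X, DDX5, DDX21, DDX31, DHX9, HNRNPAB, HNRNPH1, PRPF38B, RBM15, RBMS1, SRSF2 and SRSF3, and the 8 were the same 8 lower genes. The increase of most other members was about the size of the shift of the whole table. This scaling rests on genes already called different, and 77% of those at or above the median count were higher. It would also remove a rise that these genes share, so it cannot tell such a rise from an effect of scaling. Transcript GC content had a median of 43.9% in the higher and 52.4% in the lower members against 50.5% in the table. A fit of GC content and transcript length in each library, subtracted from the values, was run in 2 forms with the repeat as a block. With the curve centred on its median 61 members were higher and 10 lower, of which 37 and 8 passed (49% and 24.1% of listed genes, 73.2% in all). With the whole curve subtracted 45 were higher and 26 lower, of which 24 and 10 passed (32.6% and 29.9%, 62.5% in all). In that form the counts of higher members were 4 of 6 SRSF, 6 of 11 HNRNP, 3 of 8 SNRP, 2 of 4 LSM, 12 of 16 RBM, 9 of 13 DDX and 3 of 4 DHX genes.

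**Figure D2:**
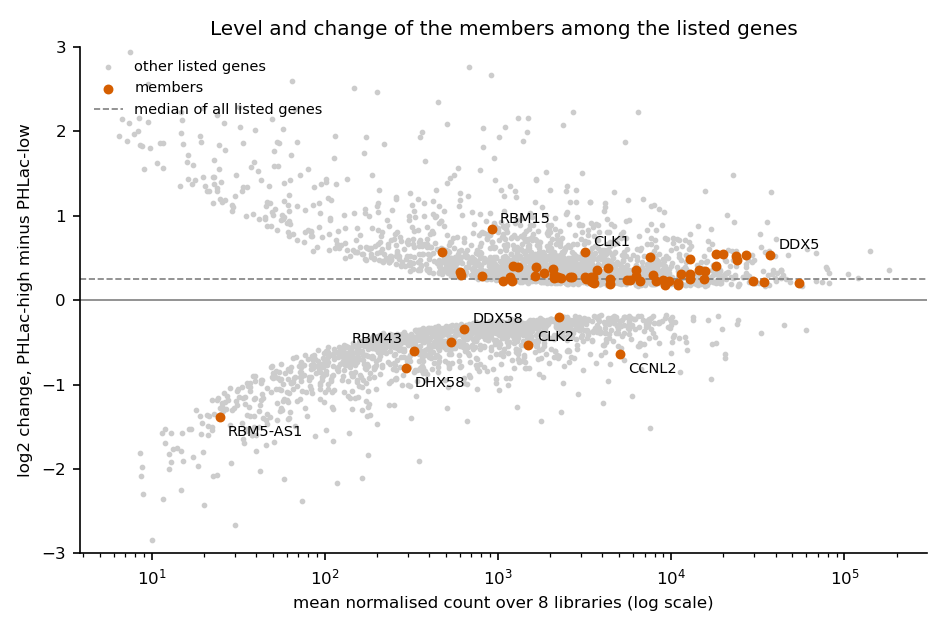
Log2 change (y axis) against mean normalised count over 8 libraries (log x axis) for the members (orange) and the other listed genes (grey). CCNL2 (-0.64) and RBM15 (0.84) stand away from the band of members near the dashed median of 0.25; 7 listed genes lie beyond the plotted limit of 3.

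The splicing cyclin CCNL2 and the kinase CLK2 were lower in PHLac-high, and the kinases CLK1 and CLK4 were higher. CCNL2 (Entrez 81669; build GRCh38, chromosome 1, 1385711 to 1399328, minus strand) encodes cyclin L2, a partner of CDK11 in nuclear speckles. Its normalised counts were 5720, 6823, 6881 and 5241 in PHLac-low repeats 1 to 4, and 3759, 4297, 4191 and 3547 in PHLac-high. Every PHLac-high library was below every PHLac-low library. CCNL2 fell by 36.0% in the group means, and by 34.3%, 37.0%, 39.1% and 32.3% within repeats 1 to 4. The change of CCNL2 was -0.64 ± 0.05 (SE, limma adjusted p = 7.8e-05). It passed without the repeat as a block as well (limma adjusted p = 0.00843), and upper-quartile scaling gave -0.86. Of the 3666 listed genes, 501 had a limma change at or below that of CCNL2.

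The sequence upstream of CCNL2 is shown because CCNL2 fell without overlap of the groups and its promoter holds the CCAAT box that many members share. Of the members with this box only CCNL2 and RBM5 were lower in PHLac-high, and all others were higher. Most members were higher with or without the box (63 of all 71). The lower members DDX12P, DHX58 and RBM43 had no promoter sequence to search. Whether the box goes with direction was not tested. The 186 bases before its RefSeq start (GRCh38.p14, chr1:1399336-1399521, minus strand, 5′ to 3′) that overlap no GENCODE exon are given here, with capitals marking the matches to CCAAT at -107 to -103 and at -66 to -62 from the start.
CCNL2 upstream: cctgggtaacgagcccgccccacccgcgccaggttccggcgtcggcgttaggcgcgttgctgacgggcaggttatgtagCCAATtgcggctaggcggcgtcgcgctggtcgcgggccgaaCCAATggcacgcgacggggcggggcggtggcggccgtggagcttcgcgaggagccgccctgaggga
Motifs were searched on both strands of the 250 bases before the RefSeq start, found for 62 of the 71 members. CCAAT was present in 33 of the 62 (53.2%), in 33.7% of 2730 listed genes with such a sequence and in 33% of all 27305 promoters. CCGGAAG, the core of ETS-factor sites, was present in 14 (22.6%) against 14.3% of listed genes and 8.82% of all promoters. CCNL2 was among these 14, with its match in the exonic part of the 250 bases that is not shown. The E-box CACGTG was present in 9 members (14.5%) against 8.64% and 6.49%. GAANNTTC, the core of heat shock elements, was in 3 members (4.84%), TGACGTCA in 1 (1.61%) and TATAAA in 7 (11.3%). The same motifs were in 4.32%, 3.08% and 7.11% of listed genes and in 5.85%, 1.77% and 11.1% of all promoters. These are letter matches without a test and show no binding.

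The CLK kinases, which phosphorylate SR proteins, split. CLK2 had 1942, 1695, 1513 and 1876 counts in PHLac-low and 1125, 1206, 939 and 1655 in PHLac-high. It was lower in every repeat, but its PHLac-high library of repeat 4 lay above the PHLac-low library of repeat 3, so the groups overlapped. CLK2 changed by -0.54 ± 0.10 (SE, limma adjusted p = 0.00175). CLK1 had 3715, 2244, 2371 and 2038 counts in PHLac-low and 3887, 4039, 3576 and 3469 in PHLac-high. The PHLac-low library of repeat 1 was high for CLK1, and the difference within that repeat was 0.07 against 0.85, 0.59 and 0.77 in repeats 2 to 4. CLK1 changed by 0.57 ± 0.12 (SE, limma adjusted p = 0.00266), by 0.34 after upper-quartile scaling and by 0.30 with the whole GC and length curve subtracted. The log2 ratio of CLK1 to CLK2 counts was 0.94, 0.40, 0.65 and 0.12 in PHLac-low and 1.79, 1.74, 1.93 and 1.07 in PHLac-high, so every PHLac-high ratio exceeded every PHLac-low ratio. CLK1 and CLK2 were both listed for differing in these libraries, in opposite directions. The split of their ratio is therefore a description and not added evidence. CLK4 had 466, 551, 458 and 669 counts in PHLac-low and 733, 620, 580 and 751 in PHLac-high, with overlapping groups. Its change of 0.33 ± 0.10 (SE, limma adjusted p = 0.0122) did not pass without the block (adjusted p = 0.111), without repeat 1 (adjusted p = 0.0689), or after upper-quartile scaling (0.11, adjusted p = 0.397). Nor did CLK4 pass in limma with the GC and length correction, centred (0.20, adjusted p = 0.109) or with the whole curve subtracted (0.06, adjusted p = 0.599).

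**Figure D3:**
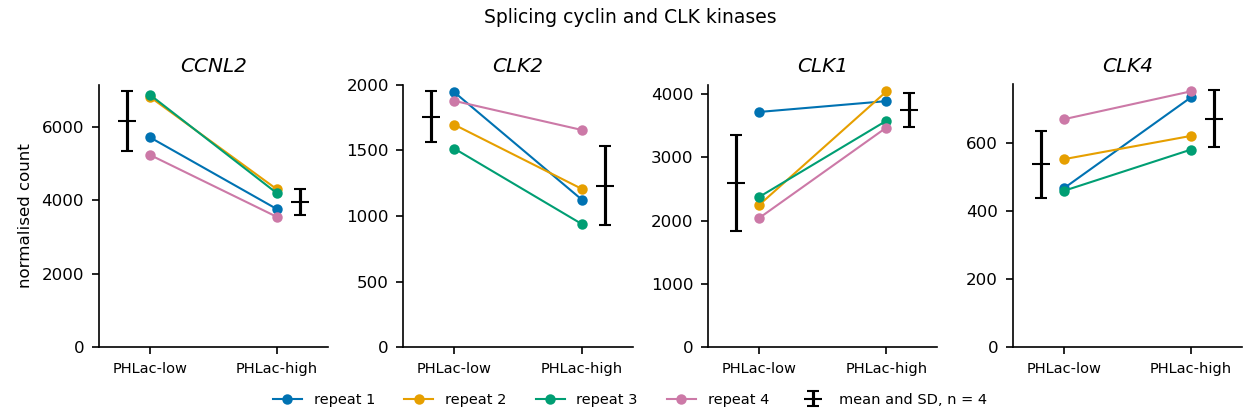
Normalised counts (y axis, from 0) of CCNL2, CLK2, CLK1 and CLK4 in the 2 fractions, with lines joining the libraries of a repeat and bars giving mean and SD. CCNL2 and CLK2 slope down and CLK1 and CLK4 slope up in all 4 repeats, and for CCNL2 alone of these genes the groups do not overlap.

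Among SR protein genes, all 6 listed were higher with the authors' size factors (median 0.28, from 0.20 to 0.51), and 5 of 6 after upper-quartile scaling (median 0.05). SRSF2, which binds exonic enhancers and activates splicing, had 5351, 5033, 6203 and 8245 counts in PHLac-low and 7854, 7346, 7917 and 12326 in PHLac-high. Both libraries of repeat 4 were the highest of their group. SRSF2 changed by 0.51 ± 0.06 (SE, limma adjusted p = 0.000204). SRSF3, the smallest of the SR proteins, had 20316, 17190, 19395 and 23173 counts in PHLac-low and 27150, 25610, 25332 and 33026 in PHLac-high, without overlap. SRSF3 changed by 0.47 ± 0.05 (SE, limma adjusted p = 0.000199), and after upper-quartile scaling it kept 0.25 and SRSF2 0.28. SRSF1, an SR protein that also shuttles to the cytoplasm, ran from 7857 to 17019 in PHLac-low and from 9379 to 24022 in PHLac-high. The SRSF1 groups overlapped broadly, because its SD between repeats (0.55 on the log2 scale) exceeded its change of 0.31. SRSF6, SRSF7 and SRSF10 changed by 0.20, 0.23 and 0.25, and after upper-quartile scaling by -0.02, 0.00 and 0.02.

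All 11 HNRNP genes were higher with the authors' size factors (median 0.24, from 0.18 to 0.54), and 8 of 11 after upper-quartile scaling (median 0.02). HNRNPAB had 12795, 12123, 15416 and 23871 counts in PHLac-low and 22366, 15910, 20719 and 34802 in PHLac-high, a change of 0.54 ± 0.07 (SE, limma adjusted p = 0.000407). HNRNPH1, which binds G-rich elements near splice sites, rose from 19408 ± 3727 to 27954 ± 4979 (SD, n = 4), a change of 0.53. These were the only HNRNP genes to pass after upper-quartile scaling (0.32 and 0.30). HNRNPF, a relative of HNRNPH1, was the only HNRNP gene whose groups did not overlap, from 10719 to 12535 in PHLac-low and from 12575 to 15390 in PHLac-high. HNRNPA2B1 had the largest SD between repeats relative to its change of all members. It had 57438, 38220, 29326 and 74824 counts in PHLac-low and 64596, 41798, 31390 and 98704 in PHLac-high, and its change of 0.20 was smaller than its SD of 0.66 between repeats. HNRNPM likewise ran from 8446 to 24247 in PHLac-low and from 11750 to 38179 in PHLac-high, with a change of 0.41.

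Small changes were seen in the structural genes of the spliceosome. All 8 SNRP genes were higher with the authors' size factors (median 0.23, from 0.20 to 0.35), while 6 were higher and none passed after upper-quartile scaling (median 0.01), and the median turned to -0.02 with the whole GC and length curve subtracted. SNRPB, an Sm core protein, had the largest change of the SNRP genes. It had 14477, 10326, 11592 and 18170 counts in PHLac-low and 18394, 12875, 13195 and 26538 in PHLac-high, a change of 0.35 ± 0.06 (SE, limma adjusted p = 0.00168) and of 0.12 after upper-quartile scaling. The groups of each SNRP gene overlapped. The 4 LSM genes changed by 0.23 to 0.40 (0.01 to 0.17 after upper-quartile scaling), also with overlap and none passing after that scaling. LSM1, of the cytoplasmic LSM ring in mRNA decay, had 1081, 937, 1040 and 1408 counts in PHLac-low and 1397, 1274, 1284 and 1957 in PHLac-high. LSM1 changed by 0.40, and by 0.09 with the whole GC and length curve subtracted (limma adjusted p = 0.284). The SF3B genes SF3B4, SF3B5 and SF3B6 changed by 0.28, 0.27 and 0.20, and by 0.05, 0.05 and -0.03 after upper-quartile scaling. SF3B4 ran from 2459 to 3909 in PHLac-low and from 3015 to 5676 in PHLac-high, with overlap. PRPF38B, a factor of spliceosome activation, had 3201, 4013, 3605 and 4129 counts in PHLac-low and 4173, 5063, 4946 and 5205 in PHLac-high, without overlap. PRPF38B changed by 0.38 ± 0.05 (SE, limma adjusted p = 0.000546) and by 0.15 after upper-quartile scaling (adjusted p = 0.048), and did not pass with the whole GC and length curve subtracted (0.13, adjusted p = 0.0546). PRPF19, a ubiquitin ligase of the spliceosome, changed by 0.26 and by 0.03 after that scaling.

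The RBM genes, a set named for RNA-binding motifs with differing roles, spread widest. With either scaling 13 were higher and 3 lower, with a median of 0.28 (0.06 after upper-quartile scaling). RBM15, which recruits the complex that methylates adenosines in RNA, had 630, 727, 576 and 676 counts in PHLac-low and 1352, 1026, 988 and 1352 in PHLac-high. Every PHLac-high library was above every PHLac-low library, and the ratio of group means was 1.81. RBM15 had the largest increase of all members, 0.84 ± 0.11 (SE, limma adjusted p = 0.000305), and kept 0.62 after upper-quartile scaling. Its paralogue RBM15B changed by 0.27 (0.05 after upper-quartile scaling), from 2405 ± 246 to 2912 ± 395 (SD, n = 4). RBMS1 had 318, 262, 459 and 504 counts in PHLac-low and 470, 507, 673 and 592 in PHLac-high, a change of 0.57 ± 0.12 (SE, limma adjusted p = 0.00285) with overlapping groups, and of 0.35 after upper-quartile scaling. RBM3, a cold-inducible protein, changed by 0.36 and RBM8A, of the exon junction complex, by 0.36. After upper-quartile scaling neither of them passed (0.13 each).

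The 3 lower RBM genes were RBM43, RBM5 and RBM5-AS1. RBM43 had 563, 386, 312 and 329 counts in PHLac-low and 296, 311, 240 and 187 in PHLac-high, without overlap, a change of -0.61 ± 0.13 (SE, limma adjusted p = 0.00307). RBM5, a splicing regulator of apoptosis genes, had 2815, 2372, 2243 and 2175 counts in PHLac-low and 2391, 2173, 1841 and 1944 in PHLac-high. The RBM5 groups overlapped, and its change of -0.20 ± 0.06 (SE, limma adjusted p = 0.0104) became -0.43 after upper-quartile scaling. RBM5-AS1 lies antisense within RBM5 (GRCh38, chromosome 3, 50099603 to 50100988 inside 50088908 to 50119021). It had 23.2, 44.3, 24.9 and 53.4 counts in PHLac-low and 16.4, 12.2, 8.35 and 14.6 in PHLac-high, a change of -1.38 ± 0.33 (SE, limma adjusted p = 0.00467). The libraries mark strand by dUTP per the labels' protocols, but whether reads were counted by strand is not stated, so reads of this overlapping pair cannot be assigned with certainty.

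Of the 13 DDX genes, 11 were higher with the authors' size factors (median 0.29), and upper-quartile scaling left 10 higher (median 0.07). DDX5, a helicase that serves splicing and transcription, had 32469, 28535, 30944 and 29204 counts in PHLac-low and 48535, 43005, 44401 and 39876 in PHLac-high. DDX3X, which acts in translation initiation, had 22460, 19747, 22663 and 22814 counts and 33579, 28601, 32903 and 31952 counts in the same order. DDX21, a nucleolar helicase of ribosome biogenesis, had 12332, 15618, 15318 and 15856 counts and 20200, 19785, 22558 and 23499 counts. For each of these abundant helicases the groups did not overlap. Their changes were alike in size, 0.54 ± 0.05 for DDX5, 0.53 ± 0.05 for DDX3X and 0.54 ± 0.07 for DDX21 (SE, limma adjusted p = 0.000109, 8.95e-05 and 0.000249). After upper-quartile scaling they were 0.31, 0.31 and 0.32. DDX20, DDX31 and DDX47 also had groups without overlap, at changes of 0.40, 0.39 and 0.18 (0.18, 0.17 and -0.04 after upper-quartile scaling), which made 6 DDX genes of the 12 higher members without overlap. Over all members 15 (21.1%) had groups without overlap, 12 upward and 3 downward, against 36.7% of all listed genes (23.3% upward and 13.4% downward). DDX39A, an export helicase, ran from 2085 to 5185 in PHLac-low and from 2592 to 8173 in PHLac-high, with repeat 4 far above the other repeats in both fractions. DDX12P, a pseudogene with the near-identical relative DDX11, had 613, 510, 523 and 820 counts in PHLac-low and 398, 366, 346 and 671 in PHLac-high, a change of -0.50 ± 0.09 (SE, limma adjusted p = 0.00172) that became -0.26 with the centred GC and length correction (adjusted p = 0.0305). The division of reads between these copies is uncertain.

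Among DHX helicases, DHX9, which unwinds double-stranded RNA in the nucleus, had 10968, 7841, 9525 and 14111 counts in PHLac-low and 15002, 11478, 12833 and 20191 in PHLac-high. The DHX9 groups overlapped, while its change was even across repeats (0.45, 0.55, 0.43 and 0.52), giving 0.49 ± 0.05 (SE, limma adjusted p = 0.000146) and 0.26 after upper-quartile scaling. DHX15, which takes the spliceosome apart, and DHX37, of small-subunit ribosome assembly, changed by 0.29 and 0.28 (0.07 and 0.05 after that scaling). DHX58 (LGP2) and DDX58 (RIG-I), cytoplasmic sensors of viral RNA, were lower. DHX58 had 432, 416, 419 and 196 counts in PHLac-low and 277, 292, 251 and 78.1 in PHLac-high, so repeat 4 was low in both fractions and the groups overlapped. DHX58 changed by -0.80 ± 0.15 (SE, limma adjusted p = 0.00154). DDX58 had 791, 651, 815 and 555 counts in PHLac-low and 804, 530, 624 and 339 in PHLac-high. Its difference was 0.02 in repeat 1, and it was lower in the other repeats (-0.30, -0.39 and -0.71), and changed by -0.34 ± 0.12 (SE, limma adjusted p = 0.0191). The call for DDX58 was lost when repeat 2, repeat 3 or repeat 4 was left out.

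**Figure D4:**
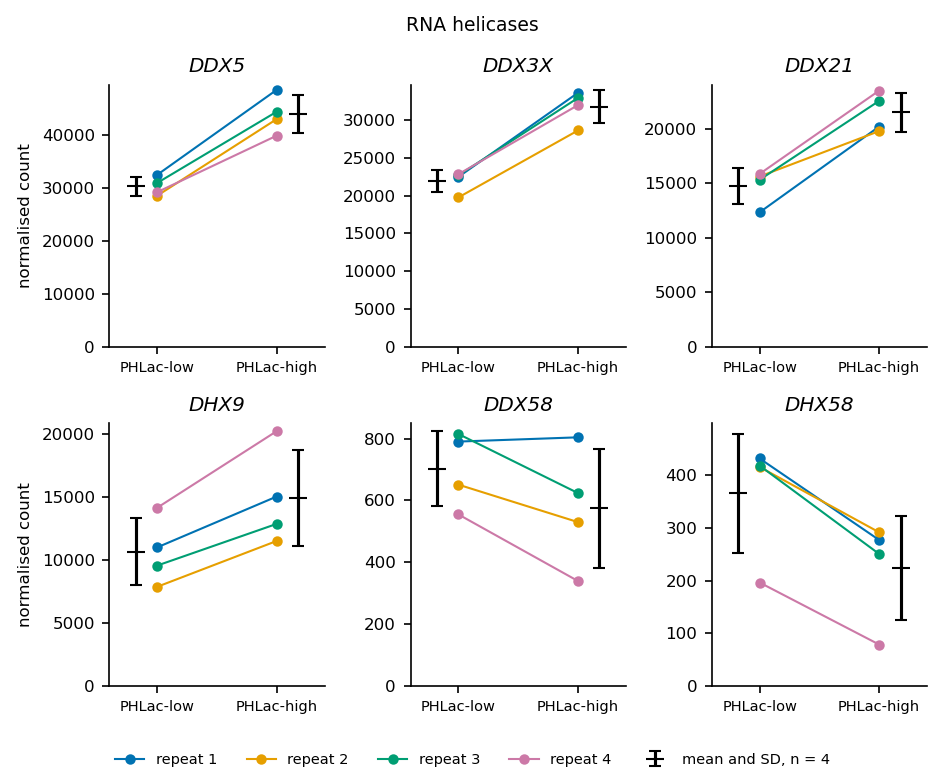
Normalised counts (y axis, from 0) of 6 RNA helicases in the 2 fractions, with lines joining the libraries of a repeat and bars giving mean and SD. DDX5, DDX3X and DDX21 rise without overlap, DHX9 rises in parallel lines from differing starting levels, and the RNA sensors DDX58 and DHX58 are lowest in repeat 4.

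The level of many members differed more between repeats than between fractions. The PHLac-low library of repeat 4 was the highest of the 4 PHLac-low libraries for 53 of 71 members (34.9% of all listed genes), and its PHLac-high partner topped the PHLac-high libraries for 55 (36.3%). For 25 members (35.2%, against 15.4% of all listed genes) the SD between repeats exceeded the change between fractions. The median change of the members was 0.25, 0.27, 0.20 and 0.40 in repeats 1 to 4, against 0.22, 0.18, 0.17 and 0.20 for all listed genes. Most calls held only with the repeat as a block. The authors' log2 fold changes matched DESeq2 with the block (SNRPB 0.349 and SF3B4 0.279 in both). Without the block DESeq2 gave 0.380 and 0.310. The members were thus listed by a comparison that appears to have used the pairing, so their passing with the block is a description. Without the repeat as a block 14 members passed in limma (31% of all listed genes), 11 higher (20.3%) and 3 lower (10.7%). The 11 were CLK1, DDX3X, DDX5, DDX20, DDX21, DDX31, HNRNPH1, PRPF38B, RBM15, RBM38 and SRSF3, and the 3 were CCNL2, CLK2 and RBM5-AS1. In edgeR without the block 14 members passed (32.6%), 11 higher (21.3%) and 3 lower (11.3%), and in DESeq2 18 passed (49.1%), 14 higher (30.4%) and 4 lower (18.7%). In limma without the block, the centred GC and length correction left 12 members (29.5%), 9 higher (21.1%) and 3 lower (8.35%), and the whole-curve form left 7 (25.5%), 3 higher (12.5%) and 4 lower (13%). With the block, leaving out repeats 1 to 4 in turn left 68, 65, 69 and 68 members passing, against 94.6%, 94.7%, 95.2% and 98.9% of all listed genes.

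**Figure D5:**
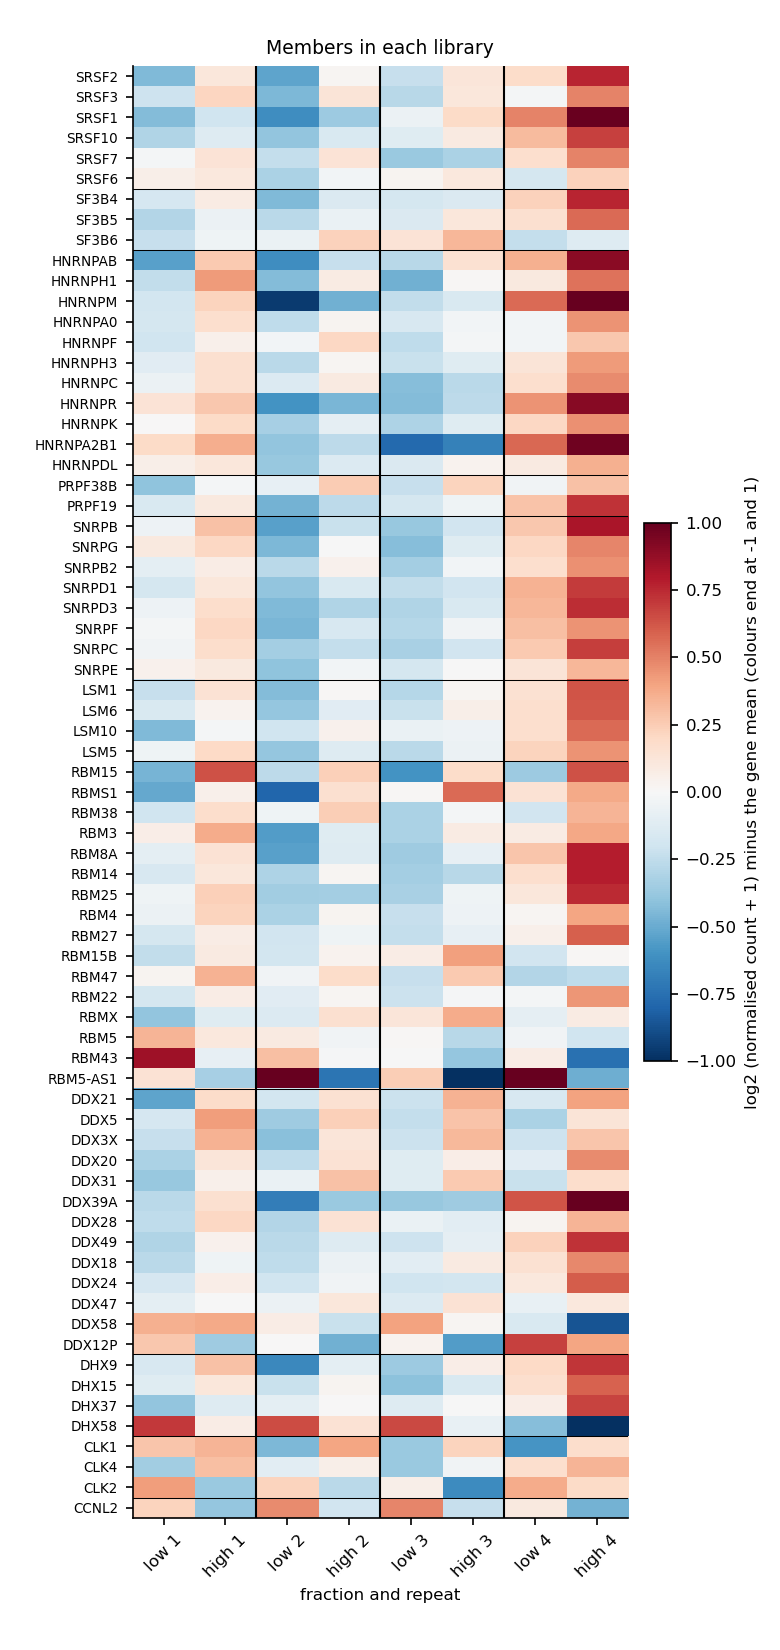
Log2(normalised count + 1) minus the gene mean (colour) for the 71 members (rows, by family) in the 8 libraries (columns, paired by repeat). Repeat 4 is highest for most members in both fractions, and within each repeat the PHLac-high column is the warmer for 62 to 64 of 71 members with the authors' size factors.

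Splicing genes outside the symbol rule were taken from 5 lists, and all of those listed passed in limma. Of 60 further spliceosome proteins 13 were listed, and all 13 were higher (median 0.27), of which 3 passed after upper-quartile scaling. Of 72 further splicing regulators 22 were listed, 20 higher and 2 lower (median 0.33), and after upper-quartile scaling 7 passed upward and 2 downward. With that scaling 23.2% of all listed genes passed upward and 41.2% downward. MBNL2, a regulator of alternative exons, rose from 2641 ± 243 to 4476 ± 611 (SD, n = 4; 0.76 ± 0.08, SE). SFPQ, a paraspeckle protein, rose from 13341 ± 2681 to 20894 ± 1329 (0.67 ± 0.09), and TRA2B, an SR-like activator, from 7624 ± 576 to 11042 ± 1941 (0.52 ± 0.09). With upper-quartile scaling MBNL2 was at 0.53, SFPQ at 0.44 and TRA2B at 0.30. The 2 lower regulators were CIRBP (-0.25, and -0.47 with that scaling) and NOVA2 (-0.86, and -1.08).

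Of 18 further kinases and cyclins of splicing and transcription 6 were listed, 4 higher and 2 lower (median 0.27), and after upper-quartile scaling 2 passed upward and 2 downward. DYRK3, a kinase that dissolves nuclear speckles, rose from 783 ± 16.0 to 1321 ± 88.1 (SD, n = 4; 0.75 ± 0.07, SE). CDK11A, a kinase partner of cyclin L, was lower, as CCNL2 was. CDK11A went from 1383 ± 148 to 1177 ± 179 with overlapping groups, a change of -0.24 ± 0.07 (SE, limma adjusted p = 0.00898), and of -0.46 after upper-quartile scaling. Reads of CDK11A cannot be separated with certainty from its near-identical copy CDK11B. SRPK3, an SR protein kinase, was at 71.7 ± 24.1 and 32.9 ± 3.16 counts (-1.06 ± 0.22, SE, and -1.28 after upper-quartile scaling). The list of further RNA helicases held 24 symbols, some of them older and newer names of the same gene, and RIGI, which is the member DDX58. From this list 6 genes outside the rule were listed by the authors, 3 higher and 3 lower (median 0.05). After upper-quartile scaling 2 of them passed upward and 3 downward. EIF4A3, the helicase of the exon junction complex, rose from 8125 ± 419 to 13565 ± 2167 (0.73 ± 0.07, SE) without overlap, while MOV10 (-0.45), HELZ2 (-0.24) and SKIV2L (-0.22) were lower. With upper-quartile scaling these were 0.50 for EIF4A3, -0.68 for MOV10, -0.47 for HELZ2 and -0.44 for SKIV2L. Of 15 genes of the exon junction complex and nonsense-mediated decay 5 were listed, EIF4A3 among them, and all 5 were higher (median 0.36), with EIF4A3 alone passing after upper-quartile scaling. Of all listed genes 99.9% passed, 58.7% upward and 41.2% downward. After upper-quartile scaling 64.4% of them passed, 23.2% upward and 41.2% downward.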

How the data were processed

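RNA was sequenced from sorted fractions in 4 paired repeats (8 libraries), the pairing being given in the series' design text. The submitters' processing notes name hg38, STAR, SAMtools, Subread and DESeq2. The authors deposited a table of 3666 genes with an adjusted p-value up to 0.05, holding normalised counts (signal: reads divided by 1 size factor per library), log2 fold changes and p-values. Dividing out the size factors (0.755 to 2.09) gave whole reads within 0.02 read. Library totals were not used, since the table holds only part of each library.

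Values were compared as log2(normalised count + 1) with limma 3.58.1 (R 4.3.3), with the repeat as a block, trended variance and Benjamini-Hochberg adjustment over all 3666 genes at 0.05. Deviations of same-repeat libraries from their group means correlated at 0.53 to 0.76. Alternatives were no block, each repeat left out, a pseudocount of 0.1, upper-quartile scaling, a minimum mean count of 100, edgeR 4.0.16 and DESeq2 1.42.0 on recovered reads, and a lowess correction for GC content and transcript length (3509 genes). That correction was first run with the whole curve subtracted; the form centred on the median was chosen after its result had been seen, and both are reported. The limma fit with the block was tested on simulated counts with 200 of 3666 genes changed by 0.8. It recovered 97% of the 200, with 11 false calls. The other fits, and changes near the member median of 0.27, were not tested in this way.

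Named genes were every CCNL and CLK member, the 6 largest increases and decreases with a mean count of at least 100 and 1 direction in all repeats, and the largest increase and decrease in each family (20 genes). Other members given with values, such as SRSF3, DDX3X and DDX58, the motifs and the promoter shown were chosen after values were seen. The members and lists were chosen with earlier results of these data known. Promoter sequences are from RefSeq (GRCh38.p14). One gene of the further lists is not reported here by name.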

Additional observations from a re-analysis of the deposited data

Results flagged for a closer look

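Of 40 groups of 4 libraries examined for the 20 named members, 4 held a library far from the other 3, measured as its gap to the nearest library divided by the range of the group. Chance flags about 1 in 20 groups, or 2 of 40. For DHX58 the PHLac-low library of repeat 4 stood at 0.931 (196 counts), and for DDX21 the PHLac-low library of repeat 1 at 0.847, in each case below the others. For SRSF2 the PHLac-high library of repeat 4 stood at 0.885 and for DDX12P at 0.841 (671 counts), in each case above the others.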

How the results depend on the processing

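CCNL2 kept its direction and its call under all 16 alternatives. Of the 71 members passing with the replicate block, 14 passed in limma with no replicate block (11 higher, 3 lower), 14 in edgeR with no block (11 and 3), and 18 in DESeq2 with no block (14 and 4). Upper-quartile scaling left 21 (13 higher, 8 lower) and a member median of 0.0482. The centred GC and length correction left 45 (37 higher, 8 lower), and 12 with no block (9 and 3). The same correction with the whole curve subtracted left 34 (24 higher, 10 lower), and 7 with no block (3 and 4), with a member median of 0.0615 and an SNRP median of -0.0198. The centred form had been chosen after the whole-curve result was seen, and the whole-curve fits and the edgeR, DESeq2 and centred fits with no block were added after seeing the data. Leaving out 1 repeat at a time left 65 to 69 members, 58 to 62 higher and 7 to 8 lower, with a median of 0.23 to 0.30. The cause of these losses was not tested. Over the 20 named members 247 values kept their call, 72 lost it and none reversed. The table is selected by its authors' test, 1 line was sorted, and 7 reads lie behind the lowest value of RBM5-AS1, so its size is imprecise.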
